A study of Mus musculus with 20 samples.

Results

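The genes described here are Terc, the RNA of telomerase, and 7 genes whose products act with it: Tert, Dkc1, Nop10, Nhp2, Gar1, Naf1 and Parn. They were chosen by symbol, matched through GENCODE release M21, and are 8 of 55471 genes in the deposited gene table. All 8 are listed there and in the table of PROMPT regions (promoter upstream transcripts, named by the gene at whose promoter they lie). Total RNA was sequenced from SIMS cells, an established mouse salivary gland line. Of the 5 groups, 1 was unedited wild type and 1 was a Cas9 knockout (KO) of Btbd7, which the series names as its negative control. The other 3 groups were Cas9 knockouts of Zcchc8, each of them 1 clone, called clones 1, 2 and 3 here. Every group had 4 libraries, and all cells were grown in DMEM with 10% FBS. The labels do not say whether the libraries of a group came from separate cultures, so p-values measure only the spread between these libraries, which may be technical. They also do not say whether the Btbd7 KO cells are 1 clone.

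Telomerase is a reverse transcriptase that copies a short template within its own RNA onto chromosome ends. The mature RNA ends in an H/ACA domain, which is bound by dyskerin (Dkc1), Nop10, Nhp2 and Gar1, with Naf1 in place of Gar1 during assembly. Its precursors are longer at the 3′ end and may carry short A tails, which the exonuclease PARN removes. ZCCHC8 is a subunit of the nuclear exosome targeting complex, which hands short-lived nuclear RNA to the exosome, and its loss is known to affect the maturation of telomerase RNA.

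Terc (ENSMUSG00000064796.1) is annotated in GENCODE M21 on GRCm38 as a single-exon RNA of 423 bases on the minus strand of chromosome 3, at chr3:96414437-96414859. Both ends of this annotated entry are shown because the template lies near the 5′ end and maturation takes place at the 3′ end. The mature RNA may start or end at other bases, which the sources used here do not give. Capitals mark the template letters (CTAACCC, bases 29 to 35) in the 5′ end and the ACA box (bases 418 to 420, with 3 bases after it) in the 3′ end, each given 5′ to 3′ on the RNA strand, from the GENCODE M21 transcript. The first 60 bases are at chr3:96414800-96414859 and the last 60 at chr3:96414437-96414496.
Terc 5′ end: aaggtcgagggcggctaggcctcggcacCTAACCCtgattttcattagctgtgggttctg
Terc 3′ end: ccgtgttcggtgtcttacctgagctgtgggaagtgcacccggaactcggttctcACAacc

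Terc was listed at 0 counts in all 20 libraries of the gene table and in all 19 libraries of the PROMPT table. The gene table held 243390212 counts in all, so 3 counts, the limit that a count of 0 allows, would correspond to 0.0123 CPM over all libraries, where CPM is the count per 1000000 gene counts of a library after TMM scaling. The reads carry no molecular identifiers, and this limit covers counting error only. Other short RNAs were at 0 too. Both entries of Rmrp, the RNA of ribonuclease MRP, which dividing cells need, had no count in any library, as did 400 of 562 genes of the annotation's misc_RNA class and 25437 genes in all. Because genes of that kind are also at 0, the value for Terc says only that it is listed at 0. No level, fold change or correlation can be given for telomerase RNA from these tables, in any of the 5 groups.

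The nearest annotated gene to Terc, and the only 1 within 5000 bases of it, was higher in every Zcchc8 KO clone. This is Gm21960 (ENSMUSG00000095836.3), a processed pseudogene at chr3:96412910-96413361 on the same strand, 1075 bases beyond the 3′ end of Terc. The 4 wild-type libraries gave 5.46, 2.72, 3.81 and 3.58 CPM for Gm21960 and the Btbd7 KO libraries 2.95, 3.19, 2.11 and 2.53 CPM. Clone 1 gave 4.04, 7.99, 8.40 and 9.81 CPM, clone 2 gave 7.95, 6.48, 8.44 and 7.46 CPM, and clone 3 gave 9.89, 11.05, 13.4 and 10.4 CPM. All libraries of clones 2 and 3 lay above all wild-type libraries, and 3 of 4 did so in clone 1. The mean of the 3 clones was higher than wild type by 1.15 on the log2 scale (SE 0.20, adjusted p = 8.07e-05, edgeR quasi-likelihood test with Benjamini-Hochberg adjustment over all 15297 genes tested, as for all adjusted p-values of genes here). The single clones differed from wild type by 0.96, 0.96 and 1.52, each past an adjusted p of 0.05 (edgeR), which is what "called" means below. Of all genes tested, 16.2% were called higher for the mean of the clones, and 16.7%, 16.1% and 14% in clones 1 to 3. In Btbd7 KO the difference was -0.50 (SE 0.25, adjusted p = 0.188, edgeR), which was not called.

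The PROMPT region of Gm21960 lies on the side of Terc, since Terc covers the bases from 1076 to 1498 upstream of the start of Gm21960. How far a PROMPT region reaches is not given in the sources used here, so whether this one includes Terc is not known. It gave 6.25, 7.40 and 7.33 CPM in the 3 wild-type libraries of that table and 4.98 to 6.20 CPM in Btbd7 KO. The clones gave 11.6 to 15.03, 9.05 to 14.4 and 11.6 to 18.8 CPM, all above wild type. The mean difference was 0.98 (SE 0.15, adjusted p = 1.74e-07, edgeR over 17617 regions). Of all these regions, 39.2% were higher for the mean of the clones and 28.4% in the mean and every clone. Their median difference for the mean of the clones was 0.43. Gm21960 shares 89.9% of its bases with Rps7 messenger RNA over 378 of its 452 bases, so reads could be split between them and its count is uncertain. Rps7, chosen after the values of Gm21960 were seen, differed by 0.21 for the mean of the clones (SE 0.11, adjusted p = 0.12, edgeR). It was called higher in clone 1 (0.36) but not in clone 2 (0.12) or clone 3 (0.16). In Btbd7 KO Rps7 was higher by 0.69 (SE 0.13, adjusted p = 4.02e-04, edgeR). The part of shared reads in the values of Gm21960 was not tested.

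**Figure D1:**
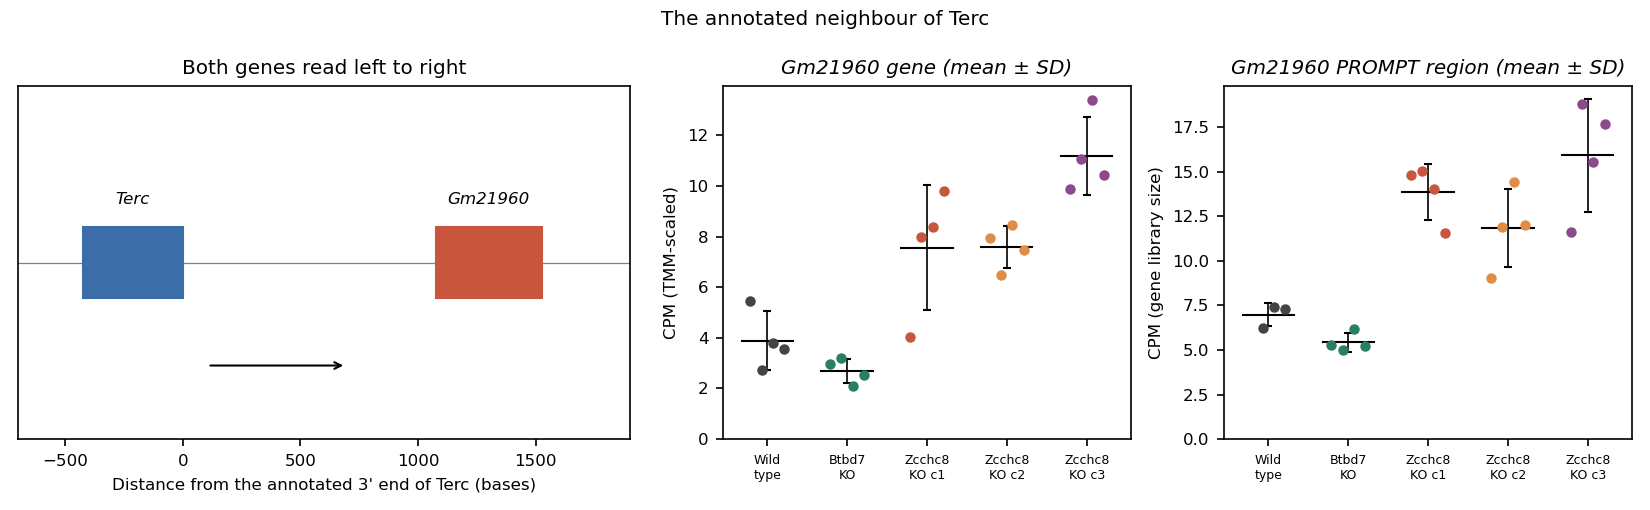
Left, the annotated positions of Terc and Gm21960 as distance in bases from the 3′ end of Terc; both are read from left to right. Centre and right, CPM of the Gm21960 gene and of its PROMPT region in single libraries (points), with the group mean and SD (line and bar), for wild type, Btbd7 KO and Zcchc8 KO clones 1 to 3 (c1 to c3). The clones' PROMPT values, from 9.05 to 18.8 CPM, all lie above the wild-type values.

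The libraries held between 6833258 and 17771804 gene counts, with all libraries of clone 1 at 7683444 or fewer. Zcchc8 RNA was lower in clone 2 (-1.48, SE 0.08) and clone 3 (-0.26, SE 0.08, adjusted p = 0.0135, edgeR), and differed by -0.11 in clone 1 (SE 0.08, adjusted p = 0.291, edgeR). An edit that stops the protein need not lower the RNA, so this level does not check the label of clone 1. Btbd7 RNA was lower in Btbd7 KO by 1.03 on the log2 scale. Wild-type replicate 1 stood apart, with 14245 genes detected against up to 18791 in the others, and it is not in the PROMPT table. Among the epithelial markers, Krt8 and Krt18 fell in the clones by 0.38 and 0.46 on the log2 scale, and Cdh1 (0.03) and Epcam (0.05) were not called. Of the markers of other cells, Col1a1, a fibroblast gene, rose by 0.67 for the mean of the clones and by 0.66 in Btbd7 KO, within 8.65 to 26.6 CPM in all libraries, while Vim, Ptprc and Pecam1 held at most 33, 12 and 8 counts in any library. Col1a1 was called in clone 2 (1.09) and clone 3 (adjusted p = 2.27e-05, edgeR) but not in clone 1 (-0.09, adjusted p = 0.72, edgeR), and the clones also differed from each other for Cdh1 (adjusted p = 2.83e-05, edgeR) and Krt8 (adjusted p = 0.0103, edgeR). The part of these differences in the results below was not tested.

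Of the 8 genes, 7 passed the filter on low counts. For the mean of the 3 clones against wild type, 3 were lower (Dkc1, Gar1 and Naf1) and 1 was higher (Nop10), and Nhp2, Tert and Parn were not called. Among all genes tested, 19.9% were lower and 16.2% higher in that comparison. In Btbd7 KO against wild type, 1 member was higher (Nhp2) and none lower, where 7.73% of all genes were higher and 8% lower. At an unadjusted p under 0.05 edgeR had 2 members higher and 1 lower (Gar1) in Btbd7 KO, and DESeq2 called 1 higher and 0 lower. In single clones, clone 1 had 3 members lower and 2 higher (19.1% and 16.7% of all genes), clone 2 had 4 lower and 1 higher (16.2% and 16.1%), and clone 3 had 2 lower and 0 higher (15.3% and 14%). All these comparisons share the wild-type libraries. The mean and all 3 clones were called lower for Dkc1 and Gar1, a pattern found in 5.82% of genes tested. A fit that treated the 5 cell lines as single values, 3 knockout clones against wild type and Btbd7 KO, called none of the 7 genes in edgeR, with 4 lower at an unadjusted p under 0.05. In bulk RNA, fewer cells of a type and less RNA per cell cannot be told apart.

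In wild type, levels per kb of exon (CPM per kb, mean ± SD, n = 4) put Nop10 first at 66.6 ± 7.67. Nhp2 (33.2 ± 9.90), Naf1 (25.8 ± 3.92), Dkc1 (25.0 ± 1.30) and Gar1 (20.9 ± 3.46) followed, and neighbours among these overlapped. Parn, at 7.28 ± 0.263, and Tert, at 0.567 ± 0.201, lay below without overlap. No level is given for Terc, which was listed at 0.

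Tert, the catalytic reverse transcriptase (ENSMUSG00000021611.9, chr13:73626911-73649843, plus strand), was the scarcest member with counts, with 21 to 103 counts per library. Wild type gave 1.63, 3.82, 4.26 and 3.28 CPM and Btbd7 KO 4.22, 2.06, 3.85 and 3.89 CPM. Clone 1 gave 5.21, 5.96, 5.94 and 5.60 CPM, clone 2 gave 6.85, 4.20, 5.87 and 5.80 CPM, and clone 3 gave 2.56, 2.64, 3.57 and 2.66 CPM. Clone 1 was above wild type in 4 of 4 libraries and clone 2 in 3 of 4, whereas clone 3 overlapped it. Tert rose in clone 1 by 0.81 (SE 0.28, adjusted p = 0.0258, edgeR) and in clone 2 by 0.80 (SE 0.27, adjusted p = 0.0256, edgeR), and clone 3 differed by -0.19 (SE 0.29, adjusted p = 0.665, edgeR). The clones differed among themselves (adjusted p = 0.0124 for 3 equal clones, edgeR; 28.5% of genes passed this test), with clone 3 below both others by about 1 on the log2 scale (-0.99 from clone 2; adjusted p = 0.0189 from clone 1 and 0.0134 from clone 2, edgeR). Of all genes, 7.42% and 9.39% were called lower in these comparisons. Their mean was higher than wild type by 0.47 (SE 0.23, adjusted p = 0.114, edgeR), which was not called. Without wild-type replicate 1, the lowest of its group, the clone 1 and clone 2 calls were lost, at 0.61 (adjusted p = 0.053, edgeR) and 0.60 (adjusted p = 0.0527, edgeR). Those calls were also lost without clone 1 replicate 2 (adjusted p = 0.0512, edgeR) and without clone 2 replicate 1, 3 or 4 (adjusted p from 0.0508 to 0.0681, edgeR).

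Dkc1 encodes dyskerin, the pseudouridine synthase at the core of every H/ACA particle (ENSMUSG00000031403.14, chrX:75095854-75109777, plus strand). Its levels were 97.1, 108.2, 106.9 and 100.1 CPM in wild type and 103.9, 106.2, 101.7 and 111.7 CPM in Btbd7 KO. Clone 1 gave 82.7, 80.4, 83.2 and 81.4 CPM, clone 2 gave 61.5, 72.9, 71.8 and 58.0 CPM, and clone 3 gave 90.4, 84.9, 78.8 and 90.3 CPM. All 12 Zcchc8 KO libraries lay below all 8 control libraries. How many of all genes separate groups without overlap is not given here, for Dkc1 or any other gene named, so such positions are descriptions. Dkc1 fell by 0.41 for the mean of the clones (SE 0.06, adjusted p = 3.71e-06, edgeR). Clones 1 to 3 differed from wild type by -0.33, -0.64 and -0.26, all called, and Btbd7 KO by 0.04 (SE 0.07, adjusted p = 0.769, edgeR). Clone 2 differed from clone 1 by -0.31 and clone 3 from clone 2 by 0.38, both called (10.2% of genes were lower in the first comparison and 8.46% higher in the other), and the test of 3 equal clones gave an adjusted p of 4.56e-04 (edgeR). With cell lines as the replicates the Dkc1 difference was -0.44 (adjusted p = 0.0997, edgeR), and clone 3 was not called without TMM scaling (-0.18, adjusted p = 0.0576, edgeR). The gene overlaps Mpp1 on the other strand by 45 bases at its 3′ end. Whether counting used strand is not given in the sources used here, so reads in that overlap cannot be told apart. Mpp1 RNA differed by -0.18 in the clones (adjusted p = 0.00811, edgeR) and by -0.40 in Btbd7 KO (adjusted p = 1.19e-04, edgeR), both called, while Dkc1 was at 0.04 in Btbd7 KO. The snoRNA gene Gm25520, of 118 bases, lies within Dkc1 and held at most 3 counts per library. Its PROMPT region, which by its place would fall within Dkc1, was lower in the clones (-0.52, adjusted p = 7.59e-05, edgeR).

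Over the 20 libraries, the 5 genes whose log2 CPM followed Dkc1 most closely, of 10776 genes with a mean of at least 50 counts, were Wdr43 (Pearson r = 0.957), Fhdc1 (0.939), Nop14 (0.932), Cpa4 (0.931) and Nars (0.927). These values are a description: the libraries come from only 5 lines and share their differences. No such measure exists for Terc.

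Nop10, the smallest protein of the core complex (ENSMUSG00000027133.3, chr2:112261926-112263269, plus strand), gave 61.5, 78.4, 75.3 and 80.2 CPM in wild type. Btbd7 KO gave 82.8, 76.6, 83.4 and 91.0 CPM. In clone 1 it was at 95.8, 112.7, 98.2 and 97.9 CPM, above every wild-type and Btbd7 KO library. Clone 2, with 73.9 to 86.3 CPM, and clone 3, with 71.8 to 80.9 CPM, overlapped wild type. Nop10 rose in clone 1 by 0.45 (SE 0.08, adjusted p = 1.21e-04, edgeR), and clones 2 and 3 differed by 0.12 and 0.02, not called. The mean of the clones was called at 0.20 (SE 0.07, adjusted p = 0.0254, edgeR), but was 0.13 without wild-type replicate 1 (adjusted p = 0.0829, edgeR), 0.02 against Btbd7 KO (adjusted p = 0.839, edgeR) and 0.09 with cell lines as the replicates (adjusted p = 0.785, edgeR). The clones differed from one another (adjusted p = 4.47e-04, edgeR).

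Nhp2, an RNA-binding member of the core (ENSMUSG00000001056.3, chr11:51619735-51623714, plus strand), gave 22.8, 42.8, 49.4 and 37.2 CPM in wild type, with replicate 1 lowest. Btbd7 KO gave 54.1, 51.9, 52.4 and 55.3 CPM, above every other library. Clone 1 gave 26.5 to 34.3 CPM, clone 2 gave 26.2 to 31.8 CPM and clone 3 gave 29.8 to 36.0 CPM. Each clone lay below all Btbd7 KO libraries and overlapped wild type only through replicate 1. Nhp2 in the clones differed from wild type by -0.29 (SE 0.12, adjusted p = 0.0508, edgeR), just short of a call, and by -0.45 without wild-type replicate 1 (adjusted p = 1.75e-05, edgeR). Clone 2 alone was called (-0.39, adjusted p = 0.0388, edgeR), and this call was lost without wild-type replicate 2, 3 or 4 or clone 2 replicate 1, 2 or 3 (adjusted p from 0.0705 to 0.207, edgeR). Btbd7 KO was higher than wild type by 0.49 (SE 0.14, adjusted p = 0.0174, edgeR), a call that was lost when only those 2 groups were fitted (adjusted p = 0.135, edgeR), and the clones differed from Btbd7 KO by -0.78 (adjusted p = 3.8e-06, edgeR). In that comparison with Btbd7 KO, 22.2% of all genes were lower and 18.8% higher. Nhp2 overlaps Rmnd5b, on the other strand, by 44 bases at its 3′ end. Rmnd5b RNA differed by -0.11 in the clones (adjusted p = 0.424, edgeR) and by 0.19 in Btbd7 KO (adjusted p = 0.343, edgeR).

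Gar1, which joins the particle last and replaces Naf1 (ENSMUSG00000028010.16, chr3:129824912-129831396, minus strand), gave 43.4, 30.5, 31.8 and 37.7 CPM in wild type. Btbd7 KO gave 32.2, 26.3, 30.6 and 30.8 CPM. Clone 1 was at 25.5, 23.7, 18.1 and 20.9 CPM, clone 2 at 25.5, 20.7, 20.1 and 24.8 CPM, and clone 3 at 29.7, 30.5, 28.04 and 25.4 CPM. Every library of clones 1 and 2 was below every control library, and those of clone 3 were below wild type, the closest pair both rounding to 30.5 CPM, but overlapped Btbd7 KO. Gar1 fell by 0.57 for the mean (SE 0.10, adjusted p = 5.04e-05, edgeR), with differences of -0.70, -0.66 and -0.34 in clones 1 to 3. Against Btbd7 KO the mean difference was -0.31 (adjusted p = 0.0143, edgeR), since Btbd7 KO was itself at -0.26 from wild type (SE 0.12, adjusted p = 0.154, edgeR). The clone 3 value (adjusted p = 0.0369, edgeR) was not called without wild-type replicate 1 (-0.23, adjusted p = 0.121, edgeR) or replicate 4 (-0.30, adjusted p = 0.0903, edgeR), without clone 3 replicate 1, 3 or 4 (adjusted p = 0.0646, 0.0796 and 0.123, edgeR), or with DESeq2 (-0.32, adjusted p = 0.0636). With cell lines as the replicates the mean was -0.47 (adjusted p = 0.131, edgeR).

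Naf1, the assembly factor that precedes Gar1 (ENSMUSG00000014907.10, chr8:66860217-66890564, plus strand), gave 97.8, 71.5, 74.1 and 75.9 CPM in wild type and 80.8, 88.1, 86.4 and 94.2 CPM in Btbd7 KO. Clone 1 gave 59.3, 68.4, 68.9 and 73.5 CPM, clone 2 gave 56.6, 55.5, 48.5 and 56.7 CPM, and clone 3 gave 73.2, 66.0, 68.8 and 76.2 CPM. Clone 2 lay below all wild-type libraries, while clones 1 and 3 overlapped them. Naf1 fell by 0.32 for the mean (SE 0.07, adjusted p = 0.00103, edgeR), by 0.24 in clone 1 (adjusted p = 0.0416, edgeR) and by 0.56 in clone 2 (adjusted p = 3.4e-05, edgeR). Clone 3 differed by -0.16 (SE 0.09, adjusted p = 0.182, edgeR), and the 3 clones were not equal (adjusted p = 0.00379, edgeR). Without wild-type replicate 1, the highest of its group, the mean was -0.19 (adjusted p = 0.0174, edgeR), clone 1 was no longer called (-0.11, adjusted p = 0.301, edgeR) and Naf1 was called higher in Btbd7 KO (0.25, adjusted p = 0.016, edgeR, from 0.13). The clone 1 call was also lost without wild-type replicate 4 or without clone 1 replicate 1, 2 or 3 (adjusted p of 0.0656, 0.191, 0.0837 and 0.0819, edgeR). With cell lines as the replicates the mean was -0.40 (adjusted p = 0.156, edgeR).

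Parn, the poly(A)-specific exonuclease that trims the 3′ end of telomerase RNA (ENSMUSG00000022685.9, chr16:13537960-13668170, minus strand), gave 40.1, 40.3, 37.2 and 39.1 CPM in wild type. Btbd7 KO gave 39.3 to 42.5 CPM, clone 1 gave 31.7 to 49.2 CPM, clone 2 gave 37.3 to 44.1 CPM and clone 3 gave 38.6 to 43.8 CPM. All groups overlapped. The mean of the clones differed by 0.04 on the log2 scale, with a 95% confidence interval from -0.13 to 0.20 (adjusted p = 0.753, edgeR), and single clones by -0.02 to 0.07.

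**Figure D2:**
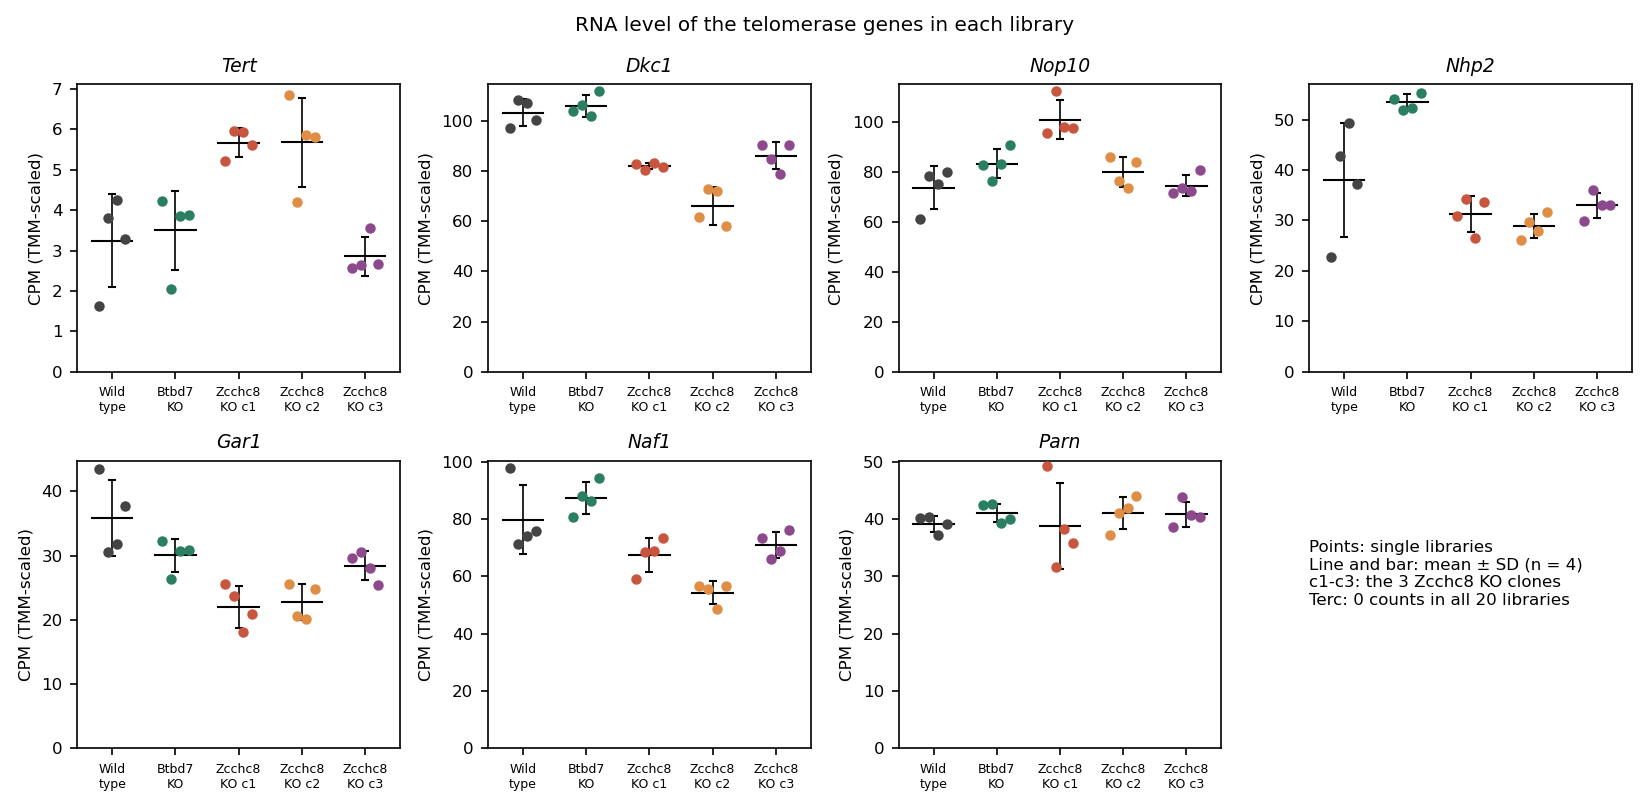
CPM (vertical axis, from 0) of each gene in single libraries (points) with the group mean and SD (line and bar, n = 4), for wild type, Btbd7 KO and Zcchc8 KO clones 1 to 3. All Dkc1 points of the clones, at 58.0 to 90.4 CPM, lie below the controls, Nop10 is raised in clone 1, and Nhp2 is highest in Btbd7 KO; Terc is not drawn because it is listed at 0.

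**Figure D3:**
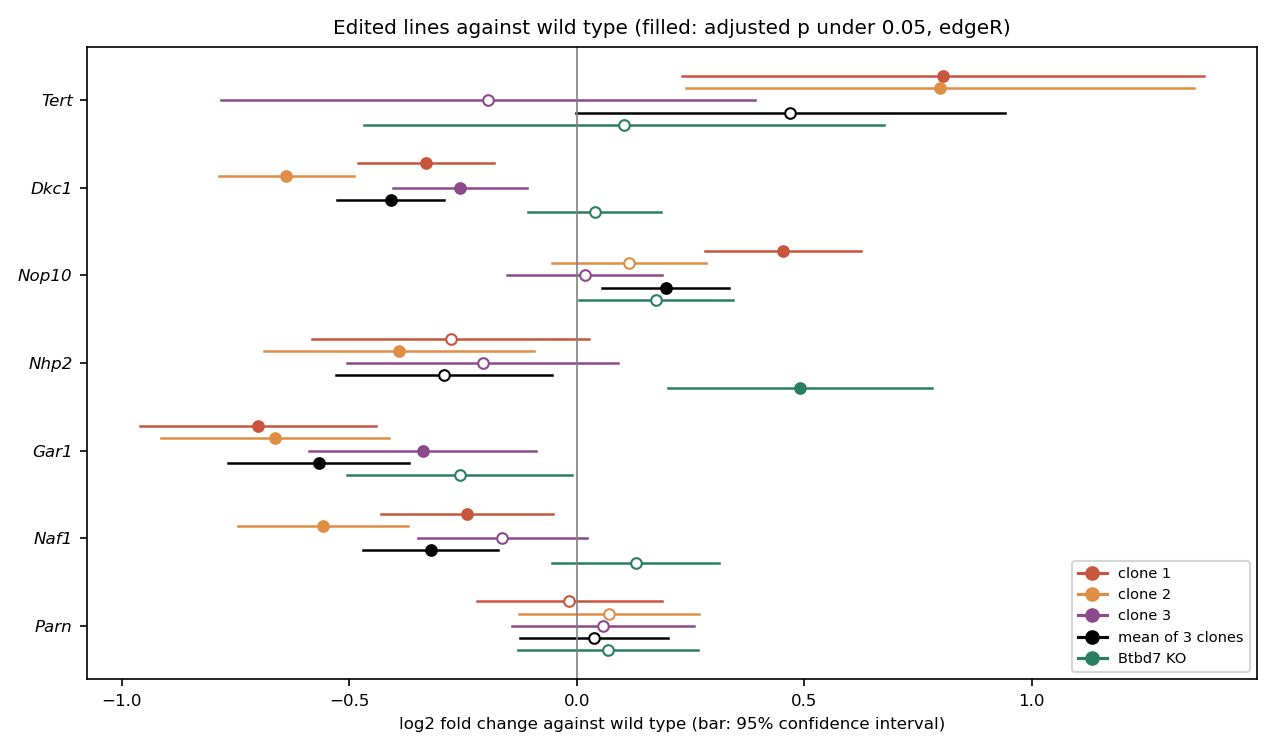
Log2 fold change against wild type (horizontal axis) with its 95% confidence interval for each gene, in each Zcchc8 KO clone, their mean and Btbd7 KO. Filled points have an adjusted p under 0.05 (edgeR); Dkc1 and Gar1 are filled in all 3 clones, and Tert is at 0.81, 0.80 and -0.19.

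The PROMPT table gives counts of RNA from regions at the promoters of these genes, which do not measure transcription alone. Promoters of Dkc1, Nhp2 and Parn are shown because RNA from the PROMPT regions at these genes was detected in all 12 Zcchc8 KO libraries. The region at Naf1 was too, but no RefSeq promoter was matched for it. The promoters run from 250 bases before to 50 after the gene's start, 5′ to 3′ on the strand of the gene, as given by RefSeq on GRCm38.p6: chrX:75095604-75095903 (plus), chr11:51619523-51619822 (plus) and chr16:13668121-13668420 (minus). RefSeq promoters were matched for 6 of the 8 genes, those other than Terc and Naf1. Capitals mark a GC box (GGGCGG) or an ETS core (CCGGAAG) on either strand, and no match of these overlapped another.
Dkc1: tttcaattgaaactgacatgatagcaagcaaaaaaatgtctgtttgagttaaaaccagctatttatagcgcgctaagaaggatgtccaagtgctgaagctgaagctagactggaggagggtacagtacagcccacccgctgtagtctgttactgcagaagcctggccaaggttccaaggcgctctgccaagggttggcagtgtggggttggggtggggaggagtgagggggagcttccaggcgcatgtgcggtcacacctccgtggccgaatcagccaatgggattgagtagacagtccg
Nhp2: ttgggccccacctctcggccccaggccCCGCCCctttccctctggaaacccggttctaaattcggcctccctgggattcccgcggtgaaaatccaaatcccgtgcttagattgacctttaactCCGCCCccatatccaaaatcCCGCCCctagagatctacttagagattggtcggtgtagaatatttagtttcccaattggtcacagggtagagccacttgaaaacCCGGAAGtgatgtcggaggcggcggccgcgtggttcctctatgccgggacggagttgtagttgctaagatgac
Parn: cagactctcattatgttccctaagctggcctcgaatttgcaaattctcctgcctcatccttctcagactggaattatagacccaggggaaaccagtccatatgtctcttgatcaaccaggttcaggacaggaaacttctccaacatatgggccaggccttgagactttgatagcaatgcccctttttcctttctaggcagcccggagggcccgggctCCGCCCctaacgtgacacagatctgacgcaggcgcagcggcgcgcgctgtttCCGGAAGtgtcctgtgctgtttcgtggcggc

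A GC box was found in 3 of the 6 promoters (Nhp2 with 3 copies, Tert with 2 and Parn with 1) and in 35.7% of all 32851 RefSeq promoters of the same length. The ETS core was found in 3 of 6 (Gar1, Nhp2 and Parn, 1 each) and in 8.9% of all promoters. The E-box CACGTG, on either strand, was found in none of the 6 and in 7.2% of all. Dkc1 and Nop10 held none of the 3 motifs in this window. A match is a description of the letters and not evidence of binding.

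RNA from the Dkc1 PROMPT region was higher in each Zcchc8 KO clone. The 3 wild-type libraries of the table held 3, 0 and 7 counts and the 4 Btbd7 KO libraries held 0. Clone 1 held 19, 14, 11 and 14 counts, clone 2 held 8, 33, 23 and 20, and clone 3 held 14, 5, 6 and 33. Scaled by gene library size, this was 0.195 ± 0.206 CPM in wild type (SD, n = 3) against 1.94 ± 0.380, 1.54 ± 0.557 and 1.16 ± 0.742 CPM in clones 1 to 3 (SD, n = 4), and no clone library overlapped a control library. The Dkc1 region rose by 2.85 for the mean of the clones (SE 0.62, adjusted p = 1.25e-04, edgeR) and by 3.18, 2.86 and 2.50 in clones 1 to 3. In Btbd7 KO, where every library was at 0, 3 counts over the group were taken as the floor. The clone means were 33.3-fold, 26.4-fold and 19.9-fold above that floor, without the counting error of the clone means. The size rests on few wild-type counts: it was 3.88 without wild-type replicate 4, which held 7 of them, and 2.36 without replicate 3, which held none. For the lower level in Btbd7 KO than in wild type the adjusted p was 0.0603 (edgeR), which was not called. Over single libraries left out it ran from 0.0277, without wild-type replicate 3, to 0.299 (edgeR). Over the other settings it ran from 0.0396, with DESeq2 under a local dispersion trend, to 0.0907 (edgeR). Dkc1 RNA itself was lower in these clones while its PROMPT region was higher.

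Nhp2 showed the same direction in its PROMPT region. Wild type held 0, 0 and 2 counts and Btbd7 KO 2, 3, 0 and 2 counts. Clone 1 held 11, 9, 2 and 1 counts, clone 2 held 2, 4, 15 and 16, and clone 3 held 12, 3, 5 and 16. In CPM, wild type was at most at 0.117 and the clones ran from 0.127 to 1.43, above wild type in 12 of 12 libraries, although 1 clone 1 library lay within the Btbd7 KO range. The Nhp2 region rose by 3.83 for the mean (SE 0.99, adjusted p = 9.9e-04, edgeR), by 3.91, 3.68 and 3.89 in clones 1 to 3, and by 2.37 against Btbd7 KO (adjusted p = 0.0069, edgeR). With 2 wild-type counts in all, both in replicate 4, the size rests on that library: without wild-type replicate 2 or 3 the mean was 3.30 or 3.43, and without replicate 4 wild type was at 0.

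Only these 2 of the 8 PROMPT regions passed the filter on low counts. Both were called higher, as were 39.2% of all 17617 regions tested, with 3.85% lower, and the median of all regions tested was 0.43. In clones 1 to 3, 38.7%, 35.1% and 36.4% of all regions were higher, 28.4% were higher in the mean and every clone, and 45.1% were higher in the clones than in Btbd7 KO. A filter that lets a region pass through the groups where it is high favours such regions, so their number says nothing about the members as a set. Neither was called in Btbd7 KO, where 1.23% of regions were higher and 1.75% lower. The share of all regions whose clone libraries all lie above the wild-type or control libraries is not given here.

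The Parn region held 0 counts in all 3 wild-type libraries and 1, 1, 0 and 0 counts in Btbd7 KO. It held 2, 2, 1 and 5 counts in clone 1, 7, 2, 8 and 5 in clone 2, and 3, 8, 3 and 9 in clone 3. Each of the 12 clone libraries was above all control libraries. With 3 counts over the group as the wild-type floor, the Parn region was 5.22-fold, 7.57-fold and 8.80-fold above that floor in clones 1 to 3. The counting error of the clone means is not in these folds. It missed the filter on low counts. The mean of the clones was called higher by edgeR without a filter (adjusted p = 0.00259) and by DESeq2 (adjusted p = 4.16e-04). With cell lines as the replicates the Parn region was also called (adjusted p = 0.00605, edgeR). The shares of all regions called in these fits, or lying above all control libraries, are not given here. In the filtered fit 39.2% of regions were higher, so whether the Parn region stands out cannot be told. Parn RNA itself was not called in the same clones.

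The other regions held few counts. Naf1 had 2, 5 and 0 counts in wild type, 0 to 4 in Btbd7 KO and 1 to 8 in the clones. Tert had 11, 5 and 1 counts in wild type, 0 to 7 in Btbd7 KO and 0 to 11 in the clones. Gar1 had 0 counts in wild type, at most 1 in Btbd7 KO and 0 to 5 in the clones, and Nop10 had 0 to 3 counts in any library. None of these was called without a filter (adjusted p = 0.662, 0.781, 0.163 and 1.00 for Naf1, Tert, Gar1 and Nop10, edgeR).

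The ratio of PROMPT to gene counts in single libraries sets each region against its own gene, on the log2 scale with a pseudocount of 0.5. For Dkc1 this ratio differed from wild type by 4.09, 4.02 and 3.14 in clones 1 to 3, and by 3.70, 3.63 and 2.79 with a pseudocount of 1. The clone libraries did not overlap with wild type, giving p = 0.0571 in the exact two-sided permutation test, the smallest that 4 against 3 libraries can give; 28 comparisons of members were made, and the p-values are not adjusted. Where PROMPT counts are at or near 0, the pseudocount and the counts of the gene set this ratio. Nop10 in clone 1 had 0 PROMPT counts, as wild type did, and its ratio still did not overlap (0.71, exact permutation p = 0.0571). For Dkc1, wild-type replicate 3 also held 0 PROMPT counts, so the same limit applies to its ratio there. With single libraries left out, the Dkc1 difference ran from 3.07 to 4.90 in clone 1 and from 3.01 to 4.83 in clone 2. In clone 3 it ran from 2.13 to 3.95. The size of the Dkc1 difference is therefore uncertain, and the ratios of the other members are not read. How many of all genes have ratios that do not overlap is not given here.

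**Figure D4:**
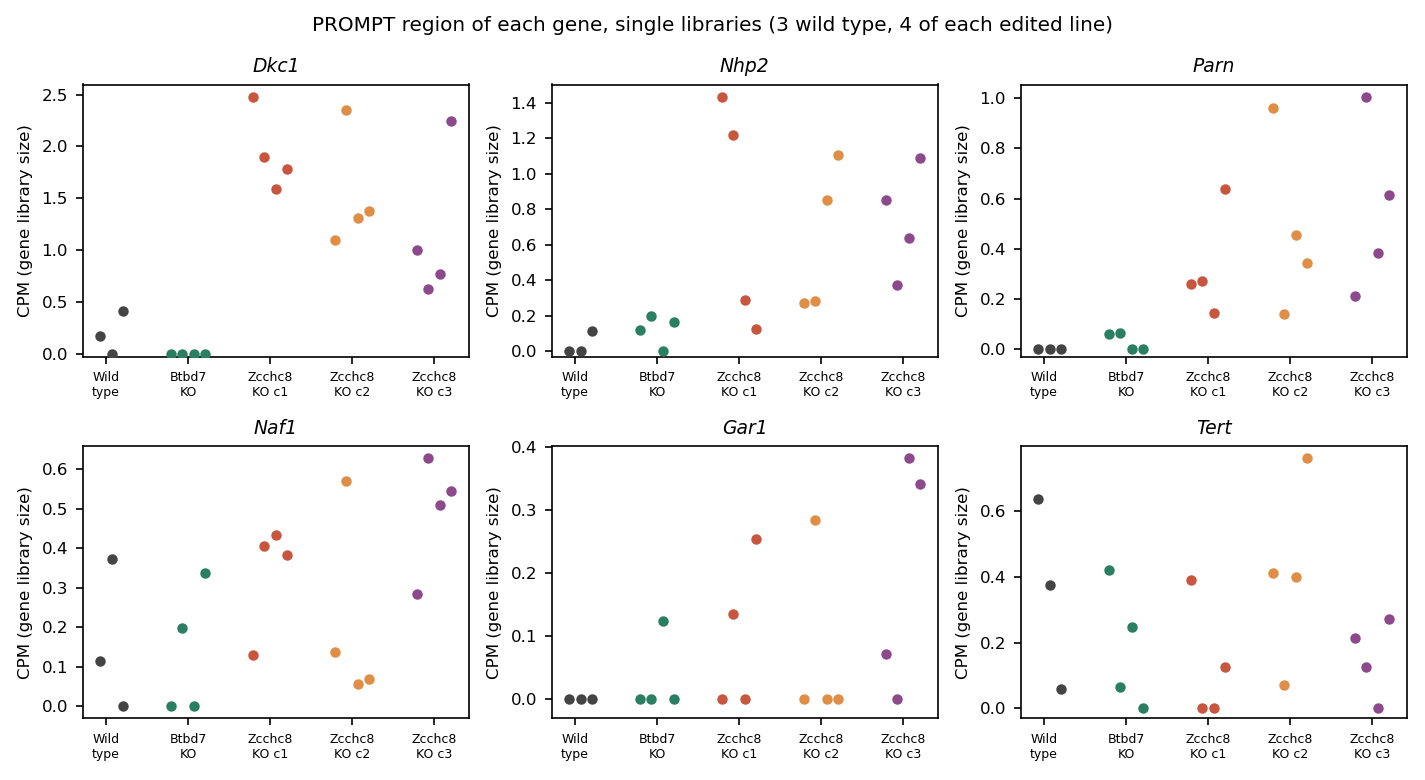
CPM of the PROMPT region (vertical axis, scaled by gene library size) of 6 members in single libraries, 3 of wild type and 4 of each edited line. For Dkc1, Nhp2 and Parn all clone points lie above wild type, whose highest values are 0.411, 0.117 and 0; Tert and Naf1 overlap, and for Gar1 many clone libraries are at 0, as wild type is.

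Genes that act around telomerase RNA were grouped in lists and are described by their counts. Of 10 tested genes for assembly and trafficking of H/ACA particles, 4 were lower and none higher for the mean of the clones (median -0.18, against -0.01 for all genes tested; DESeq2 also called 4 lower and 0 higher). In Btbd7 KO 1 was higher and 0 lower in edgeR and in DESeq2, with a median of 0.18. At an unadjusted p under 0.05 edgeR had 4 higher and 0 lower in Btbd7 KO. Ruvbl1 and Ruvbl2, ATPases that work with the assembly factor Shq1, fell by 0.40 and 0.28 for the mean of the clones, the acetyltransferase Nat10 by 0.39 and the nucleolar GTPase Gnl3l by 0.23 on the log2 scale. Of these 4, Ruvbl2 alone was lower in every clone. The clones differed from each other for Nat10 (adjusted p = 5.2e-04, edgeR) and Gnl3l (adjusted p = 3.27e-08, edgeR), which differed from wild type by 0.06 in clone 2 without a call. In single clones 4, 3 and 3 genes of the list were lower (19.1%, 16.2% and 15.3% of all genes), and 1 was higher in clone 3 (14% of all genes). Wrap53, which guides telomerase RNA to Cajal bodies, differed by 0.17 (adjusted p = 0.428, edgeR). These counts stand beside 19.9% lower and 16.2% higher among all genes for the mean of the clones, and beside 8% lower and 7.73% higher in Btbd7 KO.

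Among 10 genes for 3′ end processing, tailing and capping, 4 were lower and 1 higher (median -0.10), where 19.9% of all genes were lower and 16.2% higher. Dis3, a catalytic subunit of the exosome, fell by 0.31 (SE 0.05, adjusted p = 3.64e-05, edgeR), Tgs1, which makes the trimethylguanosine cap of telomerase RNA, fell by 0.36 (SE 0.08, adjusted p = 0.00128, edgeR), and Exosc10 and Ncbp1 fell by 0.16 and 0.17. Srrt, the ARS2 protein that links the cap to RNA turnover, rose by 0.49 (SE 0.05, adjusted p = 7.8e-09, edgeR). Tent4b, which adds the short A tails that Parn removes, differed by -0.05 (adjusted p = 0.652, edgeR). DESeq2 called 3 lower. In Btbd7 KO, where 8% of all genes were lower and 7.73% higher, 0 of 10 were called in edgeR or DESeq2, and 1 was lower at an unadjusted p under 0.05.

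Of 10 shelterin and CST genes, which cap telomeres and regulate access of telomerase, 4 were higher and 0 lower (median 0.20; the same counts in DESeq2, and 5 higher and 0 lower at an unadjusted p under 0.05), against 16.2% higher and 19.9% lower among all genes. In single clones 2, 3 and 2 were higher (16.7%, 16.1% and 14% of all genes), and Tinf2 alone was higher in every clone. Tinf2, the shelterin subunit that joins the others, rose by 0.73 (SE 0.07, adjusted p = 5.67e-09, edgeR), from 41.5 to 47.5 CPM in wild type to 66.3 to 88.2 CPM in the clones. The 3 CST genes Ctc1, Stn1 and Ten1 rose by 0.27, 0.25 and 0.42 for the mean of the clones, but the clones differed from each other for Stn1 (adjusted p = 9.97e-06, edgeR), called in clone 2 alone, and Ten1 (adjusted p = 0.0282, edgeR), called in clone 1 alone. In Btbd7 KO edgeR and DESeq2 called 0 shelterin and CST genes (7.73% higher and 8% lower among all genes), with 3 higher and 1 lower at an unadjusted p under 0.05. Against Btbd7 KO the clones had 1 higher and 0 lower, where 18.8% of all genes were higher and 22.2% lower. Of the 4 core box C/D proteins, the sister class of particles, 2 fell (Nop58 by 0.29 and Snu13 by 0.26) and 0 were higher, and DESeq2 called 1 lower.

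The last list holds the RNAs whose symbols start with Snora or Scarna. Most are H/ACA RNAs, which carry the same kind of domain as telomerase RNA and bind the same proteins. The list also holds box C/D RNAs of Cajal bodies, among them Scarna2, Scarna9 and Scarna17, which were tested and not called. Of 51 listed, 25 had no count in any library and 22 were tested. For the mean of the clones 10 were higher and 1 lower (median 0.65), beside 16.2% higher and 19.9% lower among all genes. In Btbd7 KO 0 were higher and 2 lower, beside 7.73% and 8% among all genes. At an unadjusted p under 0.05 edgeR had 0 higher and 5 lower in Btbd7 KO. DESeq2 called 12 higher and 2 lower for the clones, and 0 higher and 3 lower in Btbd7 KO. The filter on low counts lets an RNA pass through the groups where it is high. The share called therefore says nothing about the list as a set. Snora21 was at 2.99 to 7.41 CPM in wild type and 5.04 to 7.94 CPM in Btbd7 KO, and at 47.3 to 55.3, 34.7 to 38.4 and 27.9 to 32.03 CPM in clones 1 to 3, a rise of 2.92 (SE 0.15, adjusted p = 1.2e-13, edgeR). Snora31 rose by 2.53 (SE 0.13, adjusted p = 2.08e-13, edgeR), Snora19 by 3.34 (SE 0.45, adjusted p = 2.21e-06, edgeR) and Snora69 by 1.80 (SE 0.38, adjusted p = 5.49e-04, edgeR). Scarna13 fell by 1.40 (SE 0.14, adjusted p = 1.9e-08, edgeR) and was also lower in Btbd7 KO by 0.83 (adjusted p = 0.00161, edgeR). Many of these RNAs lie within introns or exons of host genes, and how reads shared by both were counted is not given in the sources used here, so their values are uncertain.

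Of all PROMPT regions tested, 39.2% were higher and 3.85% lower for the mean of the clones. The filter on low counts keeps regions that are high in a group, so the counts below do not cover all listed regions. Higher for the mean of the clones were 7 of 9 tested assembly genes, 6 of 10 processing genes, 6 of 8 shelterin and CST genes and 4 of 4 box C/D proteins. Among these were the regions of the shelterin gene Pot1a (4.87), Gnl3l (3.76), Ctc1 (3.73) and Tinf2 (2.03), each called in every clone. Of the regions of Snora and Scarna genes, 2 of 30 tested were higher and 5 lower.

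**Figure D5:**
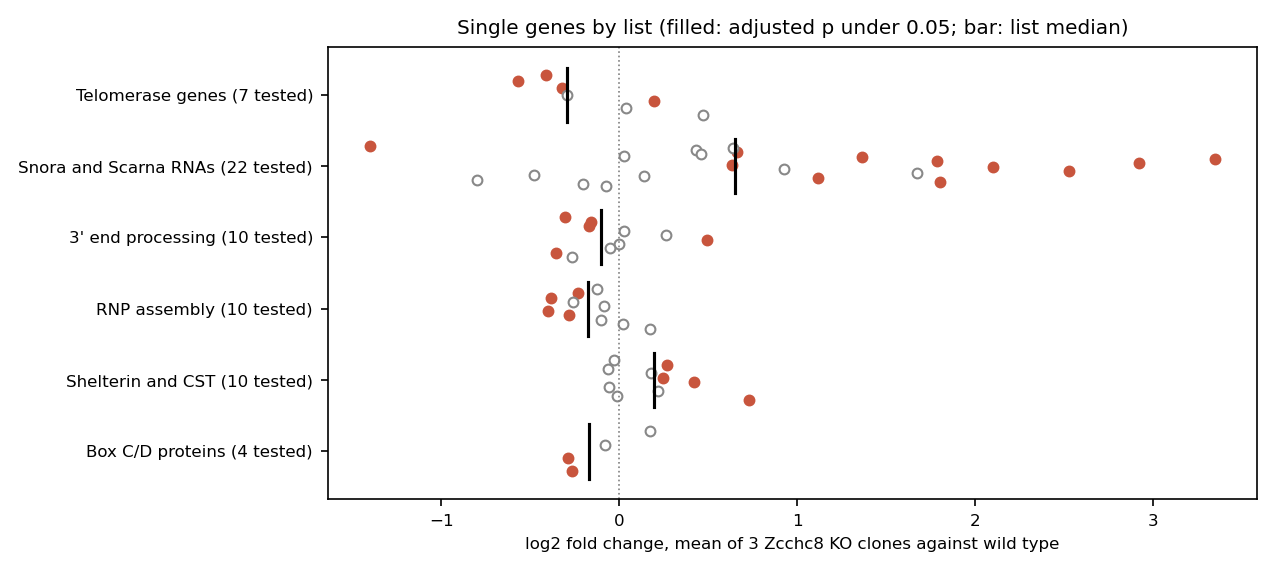
Log2 fold change of the mean of the 3 Zcchc8 KO clones against wild type (horizontal axis) for single genes of each list; filled points have an adjusted p under 0.05 (edgeR) and bars mark list medians. Snora and Scarna RNAs reach 3.34, whereas assembly genes lie between -0.40 and 0.17.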

How the data were processed

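Total RNA of 20 SIMS libraries was sequenced with a stranded kit, per the labels' protocols. The authors deposited raw counts per gene (20 libraries) and per PROMPT region (19, without wild-type replicate 1); STAR 2.7.3a and FastQC are named in the submitters' processing notes. The counter, its use of strand, the extent of PROMPT regions and the build are not given in the sources used here. Gene IDs matched GENCODE M21 (GRCm38) for 55230 of 55471 entries without version numbers, and positions come from that annotation. No column lacked a sample.

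Counts were fitted with edgeR 4.0.16 (quasi-likelihood test, R 4.3.3) over all 20 libraries in 5 groups, after TMM scaling over all genes and edgeR's default filter, with Benjamini-Hochberg adjustment and a threshold of 0.05. The PROMPT fit used gene-table library sizes. PROMPT to gene ratios were compared by exact permutation (scipy 1.17.1). The fit was tested on simulated data, with changes placed only in features with more counts than the members' PROMPT regions and with no differences between clones. That test therefore does not cover those regions. CPM are counts per 1000000 gene counts after that scaling. Alternatives were DESeq2 1.42.0 (with a local dispersion trend for PROMPT regions, chosen after its parametric trend was found to converge unreliably there), other filters and scalings, a replicate block, the other deposited gene table, Btbd7 KO or whole cell lines as controls, and leaving out each library. Named genes were all members, genes that overlap a member or lie within 5000 bases of Terc, up to 4 genes of each list called alike in the mean and every clone, and the 5 genes most like Dkc1; other named list genes, and Rps7, were chosen after their values were seen. The members and lists were chosen with earlier results of these data known.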

Additional observations from a re-analysis of the deposited data

Results flagged for a closer look

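In groups of 4 libraries, 8 of the 60 groups of values tested had 1 library that stood apart. Its gap to the nearest other exceeded 0.829 of the range (Dixon's test). For values with a normal spread, chance does this in about 1 in 20 groups. Where 1 library has counts and all others are at 0, the limit is always exceeded, as for the Nop10 and Gar1 regions below. The number flagged therefore cannot be set against that rate. For gene levels these were Tert in clone 3 replicate 3 (3.57 CPM, highest), Nop10 in clone 1 replicate 2 (112.7 CPM, highest), Naf1 in wild-type replicate 1 (97.8 CPM, highest) and Naf1 in clone 2 replicate 3 (48.5 CPM, lowest). Wild-type replicate 1 is also the library that stands apart in genes detected. For PROMPT regions they were Nop10 in Btbd7 KO replicate 2 (0.133 CPM), Gar1 in Btbd7 KO replicate 3 (0.124 CPM), Gar1 in clone 2 replicate 2 (0.285 CPM) and Naf1 in clone 2 replicate 2 (0.570 CPM), each highest and each resting on at most 8 counts.

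The 3 Zcchc8 KO clones differed from one another for Nop10 (adjusted p = 4.47e-04), Dkc1 (adjusted p = 4.56e-04), Naf1 (adjusted p = 0.00379) and Tert (adjusted p = 0.0124) in edgeR's test of equal clones, which 28.5% of all genes passed. Clone 1 was highest for Nop10, clone 2 lowest for Dkc1 and Naf1, and clone 3 lowest for Tert.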

How the results depend on the processing

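For the mean of the clones, Dkc1, Gar1 and Naf1 stayed lower with an adjusted p under 0.05 in every alternative run except whole cell lines as replicates, where 0 members were lower and 0 higher. The 1 member called higher (Nop10) became 0 with Btbd7 KO as control and with the other gene table, which lacks wild-type replicate 1, and 0 to 1 over single libraries left out. A threshold of 1 on the absolute log2 change left 0 higher and 0 lower. For Btbd7 KO, the 1 member higher became 0 with that threshold or with only the groups compared, 2 with the other gene table, and 1 to 2 over single libraries left out. In PROMPT regions, 1 member was higher, not 2, under a mean of at least 10 counts. The Nhp2 region missed that filter and was not tested there. Over all alternative settings 1 to 3 were higher, and 2 to 3 over single libraries left out. The Parn region was called higher without a filter, with DESeq2, with cell lines as replicates and without wild-type replicate 2, 3 or 4. In Btbd7 KO 1 region was lower with DESeq2 and 0 to 1 with single libraries left out.

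Values near 0 changed sign. Parn in clone 1 was 0.029 with DESeq2, 0.056 without TMM, 0.0059 with only the groups compared, 0.016 with the other gene table, 0.014 with TMM after the filter (an alternative chosen after seeing the data) and -0.14 to 0.082 over single libraries left out. Parn in the mean of the clones was -0.032 with Btbd7 KO as control and -0.026 with cell lines as replicates. Nop10 in clone 3 was -0.052 with the other gene table and -0.052 to 0.069 over libraries left out. Tert in Btbd7 KO was -0.11 with the other gene table and -0.11 to 0.30 over libraries left out. The causes were not tested.

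With the replicate number as a block, Dkc1 was at -0.41 (adjusted p = 1.3e-05, edgeR), 3 members were lower and 1 higher, and no call of a member changed. The numbers share no stated source: over 40 same-numbered pairs the correlation of deviations ran from -0.087 to 0.152. Depth limited the PROMPT values, where most members held under 10 counts per library.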
